A study of Mus musculus with 6 samples.

Results

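The 10 genes described here handle arginine, nitric oxide and tetrahydrobiopterin, and they were measured in the colon of mice with chemically induced colitis whose myeloid cells lacked PPAR gamma. The members were given by name as Nos2, Nos3, Arg1, Arg2, Slc7a2, Ass1, Asl, Gch1, Pts and Odc1, out of 18194 genes named on the array. They were found through 18 probe sets that the platform annotation gives to one of these genes alone, and each gene was led by its probe set with the highest mean over the 6 arrays.

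Arginine stands at a branch point. Nitric oxide synthases turn it into nitric oxide and citrulline, and arginases turn it into urea and ornithine, the starting point of polyamines. Inducible nitric oxide synthase needs tetrahydrobiopterin as a cofactor, and in mouse macrophages the balance between nitric oxide synthase and arginase is widely used to describe activation states, while in the gut epithelium polyamines are needed for cell renewal.

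Total RNA of whole colon was hybridised to expression arrays, 1 array per mouse, from C57BL/6 mice that had entered the experiment at 6 to 8 weeks of age. The 3 deficient mice carried PPAR g fl/fl alleles and Lysozyme M cre+. Here a Cre recombinase at the lysozyme promoter is used to remove Pparg in macrophages, neutrophils and other myeloid cells, and the epithelium, endothelium and muscle of the colon are meant to keep it. The 3 control mice were littermates with the same PPAR g fl/fl alleles and Lysozyme M cre-. All 6 received dextran sodium sulfate (DSS), a polymer that injures the colonic epithelium, at 2.5% in drinking water and were killed on day 7, so no untreated colon was compared. Cre was present in the deficient mice alone, and its effect cannot be told apart from that of Pparg loss. Values are log2 expression levels, 1 unit being a doubling, and differences are deficient minus control.

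Some features of the arrays bear on all results. Deficient replicate 3 and control replicate 1 carried genes of the small intestine: Apoa1, an apolipoprotein of small intestinal absorptive cells, stood at 15.23 and 15.46 on these arrays and between 3.82 and 7.38 on the other 4, while Car1, a carbonic anhydrase of colonocytes, stood at 7.02 and 2.83 against 13.60 to 15.32. They are called the Apoa1-high arrays below. Each genotype held 1 of them, so differences are also given over the other 4 arrays and within this pair. Xist, transcribed from the inactive X chromosome of females, was high on control replicate 2 alone (12.11, against 2.25 on the others). Leaving out that array gave 1.79 for Gch1 and -2.02 for Arg2, the differences described next. Pparg, which epithelial cells of the colon also express, was at 8.77, 8.23 and 4.15 in deficient and 5.28, 9.91 and 9.54 in control samples, and Lyz2, the gene at which Cre is inserted, was lower on every deficient array, at 6.80, 6.24 and 10.39 against 12.32, 11.79 and 12.19 in control samples. Whether the Pparg probe set lies in the deleted part was not checked.

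Gch1 and Arg2 were the members whose groups did not overlap. Gch1 was higher in every deficient colon than in any control colon and Arg2 was lower in every deficient colon than in any control colon, each on both of its probe sets, while 8.51% of all tested probe sets were separate in the higher and 4.16% in the lower direction. Arg1, Slc7a2 and Nos3 were above background on deficient replicate 2 only, Nos2 was near background on most arrays, and Asl, Pts and Odc1 were well measured with overlapping groups. No member passed a Benjamini-Hochberg adjusted p under 0.05 in the limma fit across 10491 genes, in which 0.0% of genes were called. At an unadjusted p under 0.05 there were 2 of the tested members, Gch1 and Arg2. Of the 10 members, 5 (Gch1, Arg2, Pts, Asl and Odc1) passed the filter on low values and were tested, and all of these were above log2 4 on all 6 arrays. The other 5 did not pass it and are described by their values. In whole tissue a smaller number of cells of a type cannot be told apart from less RNA per cell.

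**Figure D1:**
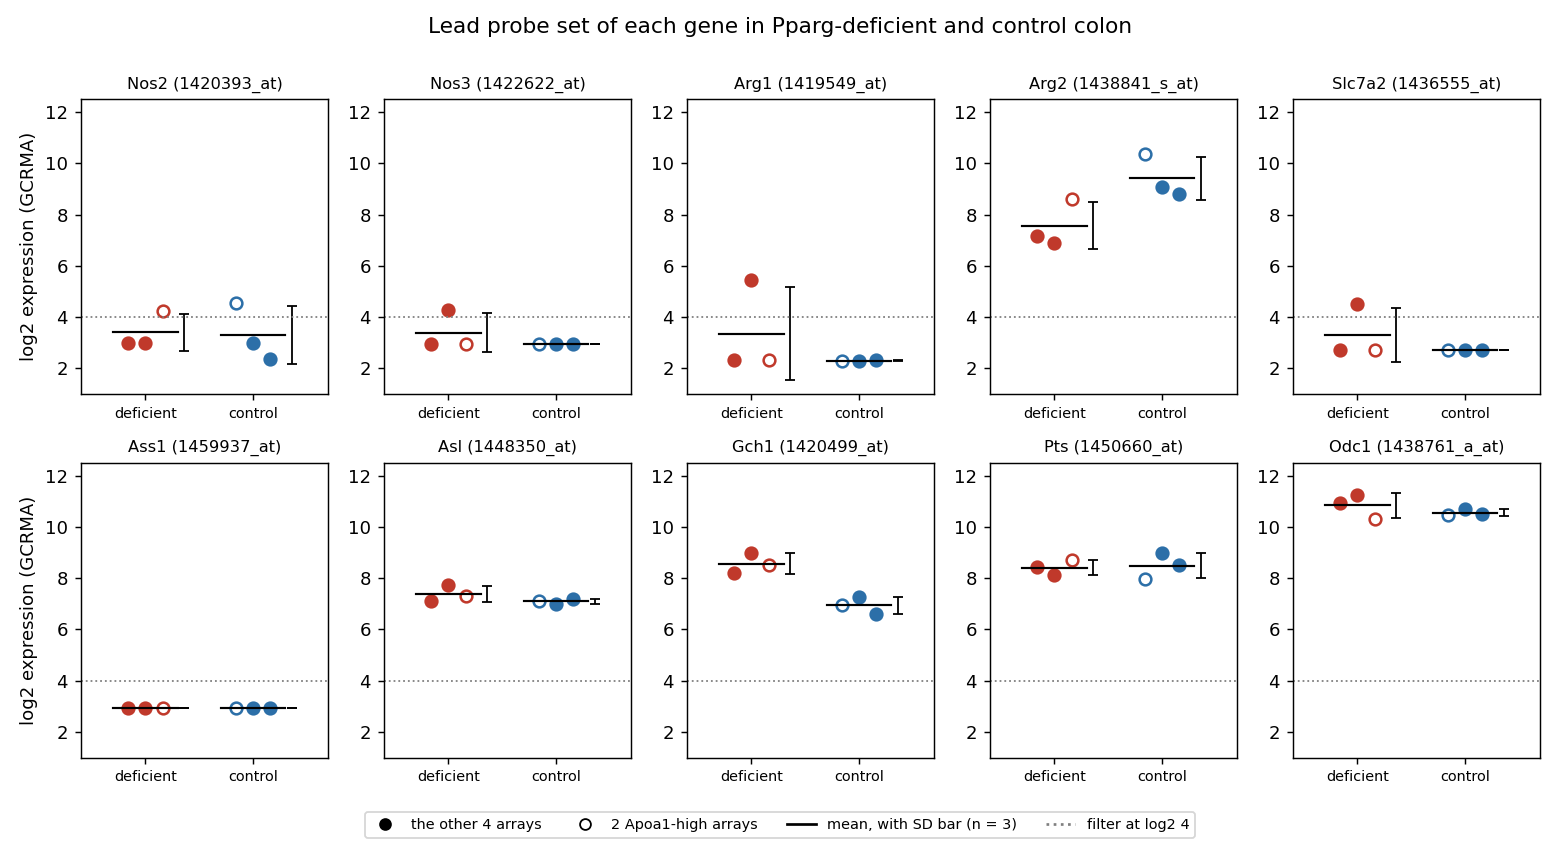
Log2 expression of the lead probe set of each of the 10 genes, with deficient samples on the left and control samples on the right of each panel; each point is 1 array, open points are the 2 Apoa1-high arrays, and lines and bars give the mean and SD (n = 3). Gch1 and Arg2 show groups that do not overlap, and Arg1, Slc7a2 and Nos3 each have 1 deficient array above the dotted filter line at log2 4.

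Gch1 encodes GTP cyclohydrolase 1, the first and rate-limiting enzyme of tetrahydrobiopterin synthesis. Its lead probe set (1420499_at) read 8.20, 8.99 and 8.52 in deficient samples, against 6.96, 7.26 and 6.60 in control samples. The lowest deficient array lay 0.93 above the highest control array. The group levels were 8.57 ± 0.40 in deficient and 6.94 ± 0.33 in control samples (SD, n = 3 each). Deficient minus control was 1.63 on the log2 scale (standard error 0.28), or 3.09-fold (95% interval 1.91 to 5.0). The limma p was 0.00127 before adjustment and 0.659 after it. By unadjusted p Gch1 was the gene of rank 14 among 10491, and 1.22% of genes had a difference as high or higher.

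The second Gch1 probe set (1429692_s_at) read 6.80, 7.24 and 6.58 in deficient samples, against 5.49, 5.30 and 6.13 in control samples. The groups were again separate, by 0.44, and differed by 1.23 (limma over 17031 probe sets, p 0.00608 before and 0.68 after adjustment, with 0.00587% of probe sets called). The difference of the lead probe set was 1.66 over the other 4 arrays and 1.57 within the Apoa1-high pair. Its mean on that pair differed from the mean of the other 4 arrays by -0.02.

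The promoter of Gch1 is shown because this member had the smallest p, beside that of Pts, the next enzyme of the same pathway, whose groups overlapped. The sequences are those of RefSeq on build GRCm38.p6, 250 bases before to 50 bases after the start site, on the transcribed strand, for Gch1 chr14:47189364-47189663 (minus strand) and for Pts chr9:50528607-50528906 (minus strand). RefSeq entries were found for 4 of the 10 members (Gch1, Pts, Ass1 and Odc1). Capitals mark motifs found by an exact search of both strands.
Gch1: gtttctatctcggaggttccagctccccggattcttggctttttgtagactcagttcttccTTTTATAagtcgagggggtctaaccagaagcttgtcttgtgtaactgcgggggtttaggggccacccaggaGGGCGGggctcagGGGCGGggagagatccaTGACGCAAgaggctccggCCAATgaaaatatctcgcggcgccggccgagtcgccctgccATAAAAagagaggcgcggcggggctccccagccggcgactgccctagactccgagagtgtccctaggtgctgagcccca
Pts: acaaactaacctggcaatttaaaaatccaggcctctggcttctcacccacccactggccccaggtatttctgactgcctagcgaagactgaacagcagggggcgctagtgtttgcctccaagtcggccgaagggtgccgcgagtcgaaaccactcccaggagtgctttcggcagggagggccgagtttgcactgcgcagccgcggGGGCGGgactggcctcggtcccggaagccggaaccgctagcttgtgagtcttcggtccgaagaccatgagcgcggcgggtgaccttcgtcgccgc

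In the Gch1 window an ATAAAA element began 29 bases before the start site, a CCAAT box 70 bases before it and a variant cAMP response element (TGACGNNA, here TGACGCAA) 88 bases before it. GC boxes (GGGCGG) began at 105 and 118 bases before it, and a reverse-strand TATAAA at 188 overlapped a reverse-strand ATAAAA at 189. Of 32851 promoter windows in the table, 6.61% held TGACGNNA, 37.4% CCAAT, 18.5% ATAAAA, 35.7% GGGCGG and 13.6% TATAAA. The Pts window held a GC box at 45 bases before the start site and none of the other motifs. The letters of an NF-kappaB site (GGNNTTTCC), a STAT site (TTCNNNGAA), an interferon-stimulated response element (GAAANNGAA) and an E-box (CACGTG) were in neither window, and were in 5.82%, 8.3%, 8.56% and 7.15% of all windows. These matches describe letters and no binding was measured.

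Arg2 encodes the mitochondrial arginase, which supplies ornithine within mitochondria of many tissues outside the liver. Its lead probe set (1438841_s_at) read 7.17, 6.90 and 8.61 in deficient samples, against 10.36, 9.09 and 8.80 in control samples. The highest deficient array, from the Apoa1-high pair, lay 0.19 below the lowest control array. The group levels were 7.56 ± 0.92 and 9.42 ± 0.83 in deficient and control samples (SD, n = 3 each). Deficient minus control was -1.86 (standard error 0.61), which is 3.63-fold lower in deficient samples (95% interval 1.29 to 10.2). The limma p was 0.0229 before adjustment and 0.659 after it, and 0.658% of genes had a difference as low or lower.

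The second Arg2 probe set (1418847_at) read 7.24, 6.45 and 8.53 in deficient samples, against 10.63, 9.03 and 8.78 in control samples. It differed by -2.07 (limma over probe sets, p 0.0263 before and 0.687 after adjustment), so both probe sets had the same order of groups. Arg2 was also 1.50 higher on the Apoa1-high pair than on the other 4 arrays, averaged over genotypes. The lead genotype difference was -1.91 over those 4 arrays and -1.75 within the pair. With the Apoa1-high pair as a block the standard error of the Arg2 difference was 0.17, with a limma p of 7.47e-05 before adjustment and 0.196 after it. In the same fit Gch1 kept a standard error of 0.29 and had a p of 0.00195 before and 0.273 after adjustment, and 13.4% of all genes had an unadjusted p under 0.05.

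**Figure D2:**
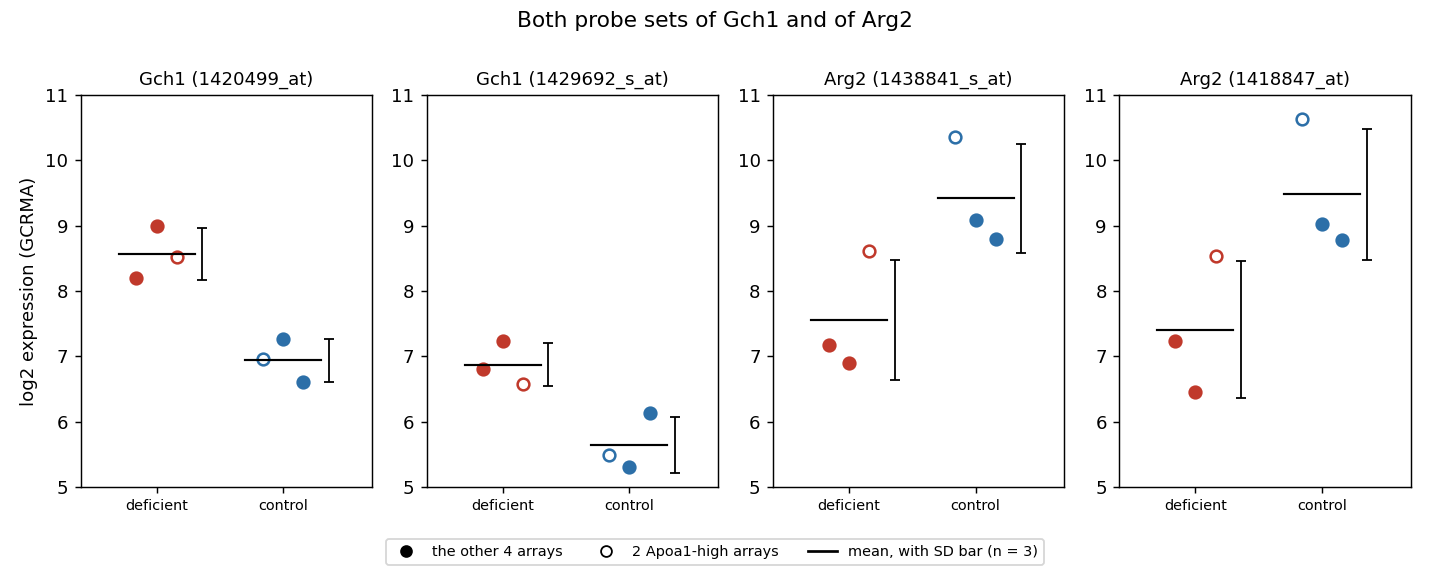
Log2 expression of both probe sets of Gch1 and both of Arg2, deficient samples left and control samples right; each point is 1 array, open points are the 2 Apoa1-high arrays, lines and bars give the mean and SD (n = 3). Filled and open points show a similar distance between genotypes, 1.66 and 1.57 for the lead Gch1 probe set and -1.91 and -1.75 for the lead Arg2 probe set.

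An unadjusted p under 0.05 was reached in the higher direction, as for Gch1, by 5.1% of all genes and in the lower direction, as for Arg2, by 2.36%. Groups did not overlap in the higher direction for 9.36% of all genes and in the lower direction for 4.15%. All differences were spread around a median of 0.06 over the 10491 genes, with 57.1% of genes higher and 42.9% lower in deficient samples. The members were listed with earlier results of these arrays known, so their shares are descriptions.

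The enzymes that follow Gch1 had overlapping groups. Pts encodes 6-pyruvoyltetrahydropterin synthase, the second step of tetrahydrobiopterin synthesis. Its lead probe set (1450660_at) read 8.42, 8.12 and 8.71 in deficient samples, against 7.98, 8.98 and 8.51 in control samples. The groups overlapped and differed by -0.07 with a 95% interval of -0.83 to 0.69, which leaves room for a difference of either sign. The limma adjusted p was 0.964, and the difference was -0.47 over the other 4 arrays and 0.73 within the Apoa1-high pair. The other Pts probe set (1458402_at) stayed at 2.25 on all arrays, the lowest value of the table.

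The remaining tetrahydrobiopterin genes were read from a list of 6, of which 5 were tested. By limma 0 passed and 0 had an unadjusted p under 0.05, 2 were higher and 3 lower, and the median difference was -0.07. Qdpr, the dihydropteridine reductase that regenerates the cofactor, stood at 12.02, 11.66 and 12.28 in deficient samples, against 12.81, 12.20 and 12.34 in control samples. Its difference was -0.46 with overlapping groups (limma p 0.12, adjusted p 0.715), and it was -0.28 without control replicate 1 and -0.30 without deficient replicate 2. Pcbd1, a dehydratase of the same recycling route, differed by -0.24 (p 0.332), by 0.11 within the Apoa1-high pair, by -0.09 without deficient replicate 2 and by -0.44 without deficient replicate 3. Spr, which catalyses the last step of synthesis, differed by -0.07, and Pcbd2, a relative of Pcbd1, by 0.08. Gchfr, the feedback regulator of Gch1, was highest on the Apoa1-high pair, at 4.90, 4.73 and 6.79 in deficient and 7.92, 4.05 and 3.44 in control samples.

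Of the nitric oxide synthases, neither member was tested. Nos2, the inducible enzyme of activated macrophages and epithelium, has a single probe set (1420393_at), which read 3.00, 3.00 and 4.25 in deficient samples, against 4.55, 2.99 and 2.35 in control samples. Only the Apoa1-high pair was above log2 4, with 1 array of each genotype. The group difference was 0.12, with 0.33 over the other 4 arrays and -0.30 within the pair. In a fit without the filter, over 18194 genes of which 0.0% were called, the unadjusted limma p was 0.877. A level this close to background gives no measure of a modest change in Nos2.

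Nos3, the endothelial enzyme, read 2.95, 4.28 and 2.95 in deficient samples, against 2.93, 2.94 and 2.95 in control samples (1422622_at). It was above log2 4 on deficient replicate 2 alone, and the other 5 values lay between 2.93 and 2.95. The difference of 0.45 therefore came from 1 array (unfiltered limma p 0.332). The 11 endothelial markers had their highest mean on the same array, at 5.92, 6.55 and 5.55 in deficient and 5.62, 5.92 and 5.99 in control samples, and their part in the Nos3 value was not tested.

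Arg1 encodes the cytosolic arginase, known from liver and from alternatively activated macrophages. Its probe set (1419549_at) read 2.32, 5.44 and 2.31 in deficient samples, against 2.28, 2.28 and 2.31 in control samples. Deficient replicate 2 stood far above the other 5 arrays, which were at background. The difference of 1.07 thus rested on that array, and in the fit without the filter its p was 0.333.

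Slc7a2, the cationic amino acid transporter CAT2, brings arginine into cells and is induced in activated mouse macrophages. Its lead probe set (1436555_at) read 2.70, 4.50 and 2.70 in deficient samples, against 2.70 on all 3 control arrays. A second probe set (1422648_at) showed the same single array, at 3.15 against 2.25 on the other 5. The remaining pair (1426008_a_at and 1450703_at) stayed between 2.25 and 2.26 on every array. As for Arg1, the difference of 0.60 came from deficient replicate 2 (unfiltered p 0.344).

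The pattern of Arg1, Nos3 and Slc7a2 was set against all named genes after it had been seen. A gene counted when its lead probe set was above log2 4 on 1 array only and at least 1 above the next. On deficient replicate 2 this held for 114 of 18194 genes, or 0.627%. On control replicate 1 it held for 61 genes (0.335%) and on the other 4 arrays for 10 to 29. Deficient replicate 2 also had the highest neutrophil markers, with a mean of 6.38 over the 13 markers named on the array, against 5.19 and 4.26 in deficient replicates 1 and 3 and 3.46, 3.35 and 4.19 on the control arrays. The mean of 17 macrophage and monocyte markers was highest there too, at 9.20. The part of these cells in the values of Arg1, Nos3 and Slc7a2 was not tested.

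The citrulline recycling pair makes arginine from citrulline. Ass1, argininosuccinate synthase, was represented by 1 probe set of its own (1459937_at), which stayed at 2.94 on all 6 arrays, its lowest value. A brighter probe set (1416239_at), annotated to Ass1 together with the related locus Gm5424, is no member by the rule and its signal cannot be assigned to either. It read 6.68, 7.76 and 4.55 in deficient samples, against 4.30, 7.29 and 6.89 in control samples. Its low arrays were the Apoa1-high pair, which differed from the other 4 by -2.73 on average, and the genotypes overlapped with a difference of 0.17.

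Asl, argininosuccinate lyase, completes that route. Its probe set (1448350_at) read 7.12, 7.73 and 7.31 in deficient samples, against 7.11, 7.00 and 7.19 in control samples. The groups overlapped by 0.07, and the control arrays were closely spaced. Deficient minus control was 0.28 (standard error 0.21, 95% interval -0.22 to 0.79), with a limma adjusted p of 0.773. Asl was highest on deficient replicate 2, and the difference was 0.11 without that array, 0.42 without deficient replicate 1 and 0.03 with array weights.

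Odc1, ornithine decarboxylase, is the rate-limiting enzyme that turns ornithine into the polyamine putrescine. Its lead probe set (1438761_a_at) read 10.95, 11.26 and 10.31 in deficient samples, against 10.45, 10.70 and 10.51 in control samples. The groups overlapped, with 2 deficient arrays above and 1 below all controls, and deficient minus control was 0.29 (95% interval -0.39 to 0.97, limma adjusted p 0.817). A second probe set of high signal (1437711_x_at) differed by 0.20, and the third (1427364_a_at) by 0.00. The lead difference was 0.50 over the other 4 arrays and -0.14 within the Apoa1-high pair, and it was 0.08 without deficient replicate 2 and 0.55 without deficient replicate 3.

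Polyamine genes beyond Odc1 were read from a list of 13, with 10 tested. By limma 0 passed and 2 had an unadjusted p under 0.05, 8 were higher and 2 lower, and the median difference was 0.34. Over all genes 57.1% were higher, 5.1% had an unadjusted p under 0.05 in the higher direction, and the median was 0.06. Dhps, which makes hypusine from spermidine on the translation factor eIF5A, stood at 6.87, 7.22 and 6.69 in deficient samples, against 6.45, 5.96 and 6.28 in control samples. Srm, spermidine synthase, stood at 8.72, 8.61 and 8.73 in deficient samples, against 8.25, 8.12 and 8.33 in control samples. For both, every deficient array was above every control array, as for 9.36% of all genes. Dhps differed by 0.70 (limma p 0.0204, adjusted p 0.659) and Srm by 0.45 (p 0.0227, adjusted p 0.659). The unadjusted limma p was under 0.05 in 14 of 18 tested settings for Dhps and in 13 of 18 for Srm. The Srm difference was 0.44 over the other 4 arrays and 0.47 within the Apoa1-high pair, while that of Dhps was 0.93 and 0.24. Smox, spermine oxidase, differed by 0.95 with overlapping groups.

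Arginine and ornithine metabolism and transport was read from a list of 22, with 16 tested. By limma 0 passed and 0 had an unadjusted p under 0.05, 7 were higher and 9 lower, and the median difference was -0.22. Slc7a1, the constitutive arginine transporter CAT1, stood at 9.28, 8.83 and 9.08 in deficient samples, against 8.89, 8.32 and 8.40 in control samples. It differed by 0.52 with groups that overlapped by a small margin (limma p 0.0624), by 0.69 over the other 4 arrays and by 0.18 within the Apoa1-high pair. Gatm, which uses arginine in creatine synthesis, stood at 6.74, 7.27 and 6.58 in deficient samples, against 5.08, 6.26 and 6.48 in control samples. Every deficient array was above the controls, by as little as 0.10, and the difference was 0.93 (limma p 0.0714, adjusted p 0.686). It was 0.64 over the other 4 arrays, 1.50 within the Apoa1-high pair, 0.50 without control replicate 1 and 0.50 with array weights.

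The urea cycle genes of that list varied more between arrays than between genotypes. Cps1, carbamoyl phosphate synthetase 1, read 4.19, 2.34 and 11.77 in deficient samples, against 11.93, 5.01 and 5.85 in control samples. Otc, ornithine transcarbamylase, read 8.32, 3.53 and 11.04 in deficient samples, against 11.91, 9.01 and 8.61 in control samples. Nags, which makes the activator of Cps1, read 5.18, 3.03 and 7.60 in deficient samples, against 7.51, 6.24 and 5.74 in control samples. All 3 were highest on the Apoa1-high pair, and all were lowest on deficient replicate 2. Their differences of -1.50, -2.21 and -1.23 had limma p from 0.315 to 0.635, and without deficient replicate 2 they were 0.38, -0.16 and -0.11. Without control replicate 1 they were 0.67, -1.18 and -0.72, and without deficient replicate 3 -4.33, -3.92 and -2.39. Oat, ornithine aminotransferase, which links ornithine to glutamate and proline, differed by -0.73 with overlapping groups, by -0.73 over the other 4 arrays and by -0.72 within the Apoa1-high pair.

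Other nitric oxide genes, with cGMP signalling downstream of nitric oxide, were a list of 12 with 11 tested. By limma 0 passed and 1 had an unadjusted p under 0.05, 6 were higher and 5 lower, and the median difference was 0.02. Ddah1, which breaks down methylated arginines that inhibit nitric oxide synthases, stood at 10.24, 10.17 and 10.22 in deficient samples, against 9.56, 9.55 and 10.04 in control samples. All deficient arrays were above the controls, and the difference was 0.49 (limma p 0.0425, adjusted p 0.667). The Ddah1 difference was 0.41 over the other 4 arrays (limma p 0.171) and 0.66 within the Apoa1-high pair. Its unadjusted limma p was under 0.05 in 8 of 18 tested settings. Prkg2, a cGMP-dependent kinase of the intestinal epithelium, stood at 8.43, 6.40 and 8.74 in deficient samples, against 8.47, 10.44 and 10.27 in control samples. It differed by -1.87 with overlapping groups (p 0.0624), by -2.94 over the other 4 arrays, by 0.28 within the Apoa1-high pair and by -1.14 without deficient replicate 2. Nos1, the neuronal synthase, differed by 0.39 with overlapping groups.

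Over the 4 lists together, 42 of 53 genes were tested and 0 passed by limma. At an unadjusted p under 0.05 there were 3 in the higher direction (Dhps, Srm and Ddah1) and 0 in the lower, against 5.1% and 2.36% of all genes. Groups did not overlap for 4 in the higher direction (Dhps, Srm, Ddah1 and Gatm) and 0 in the lower, against 9.36% and 4.15% of all genes. The median difference was 0.06, the same as over all genes.

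**Figure D3:**
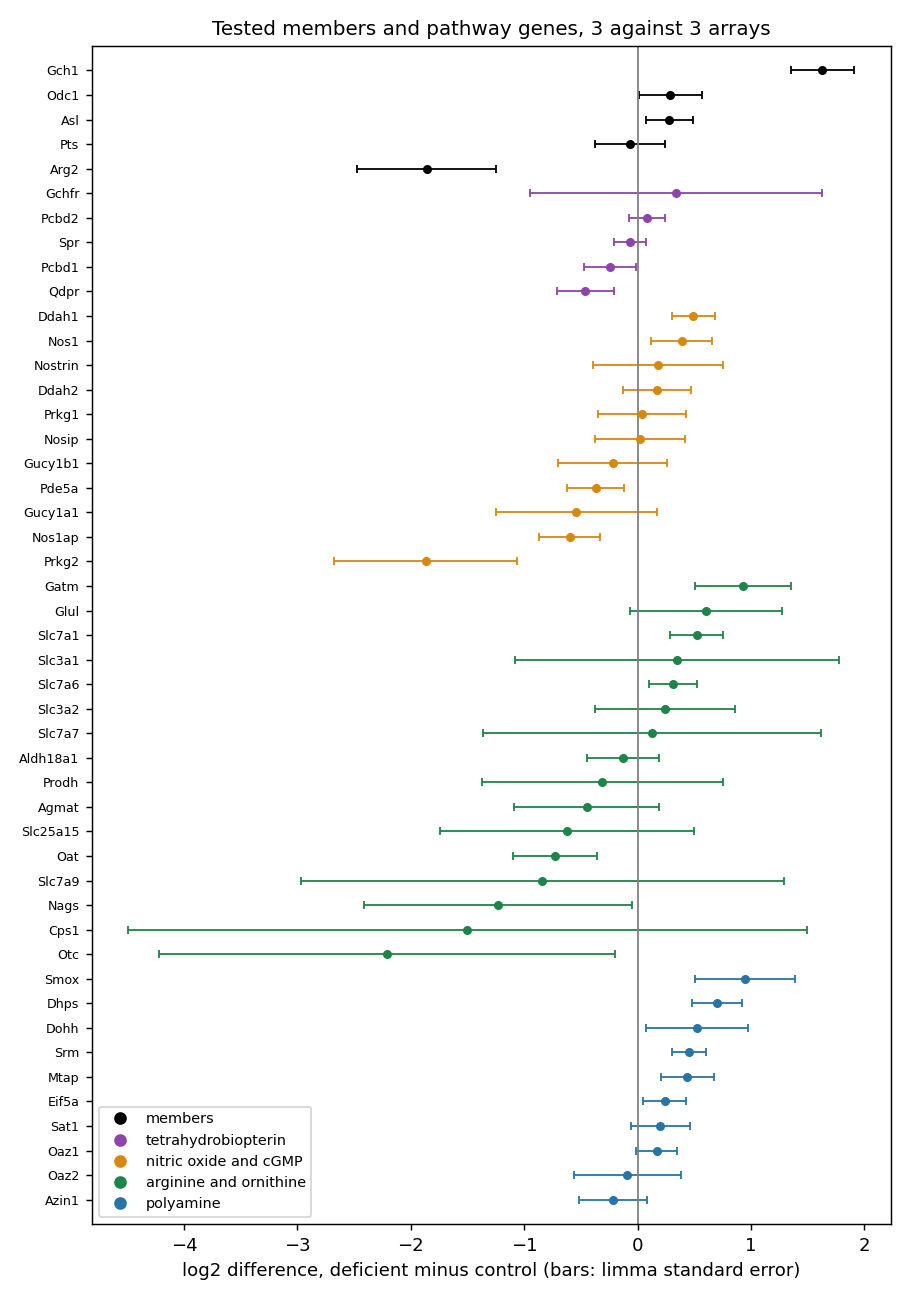
Log2 difference, deficient minus control, of the 5 tested members and the 42 tested genes of the 4 pathway lists, with limma standard errors (3 arrays per group). Gch1 lies at 1.63 and Arg2 at -1.86, and the wide bars of Cps1, Otc, Nags and Slc7a9 belong to genes that were high on the 2 Apoa1-high arrays.

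Cell type markers differed between the same samples. Macrophage and monocyte markers, 17 of 18 listed being named on the array, had list means of 8.54, 9.20 and 7.90 in deficient and 7.18, 7.38 and 7.74 in control samples. The list means did not overlap. All 17 single markers had a higher mean in deficient samples, and 8 of 17 did not overlap while the other 9 did. Over all tested genes, groups did not overlap for 9.36% in the higher and 4.15% in the lower direction. The 13 neutrophil markers had list means of 5.19, 6.38 and 4.26 in deficient and 3.46, 3.35 and 4.19 in control samples. These means did not overlap, by a small margin between deficient replicate 3 and control replicate 3. Their summed level, on the log2 scale, was 11.96, 13.75 and 9.19 in deficient and 7.95, 7.58 and 9.83 in control samples, and overlapped. Of the 13 markers, 12 had a higher mean in deficient samples and 2 did not overlap. Cxcr2, Mpo, Elane, Ngp and Camp stayed under log2 4 on every array. The 9 epithelial markers had means of 13.21, 13.13 and 13.37 in deficient and 13.66, 13.17 and 13.09 in control samples. The order of arrays by the macrophage mean was deficient 2, 1 and 3 and then control 3, 2 and 1. Gch1 and the macrophage list mean were thus both higher on all deficient arrays. Gch1 was highest and Arg2 lowest on deficient replicate 2, the array with the highest macrophage and neutrophil markers. Within groups the order of Gch1 differed from that of the macrophage mean. Gch1 read 8.20 and 8.52 on deficient replicates 1 and 3, and was lowest, at 6.60, on control replicate 3. Arg2 rose over the arrays in the order in which the macrophage mean fell. The part of macrophages and neutrophils in the values of Gch1 and Arg2 was not tested.

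**Figure D4:**
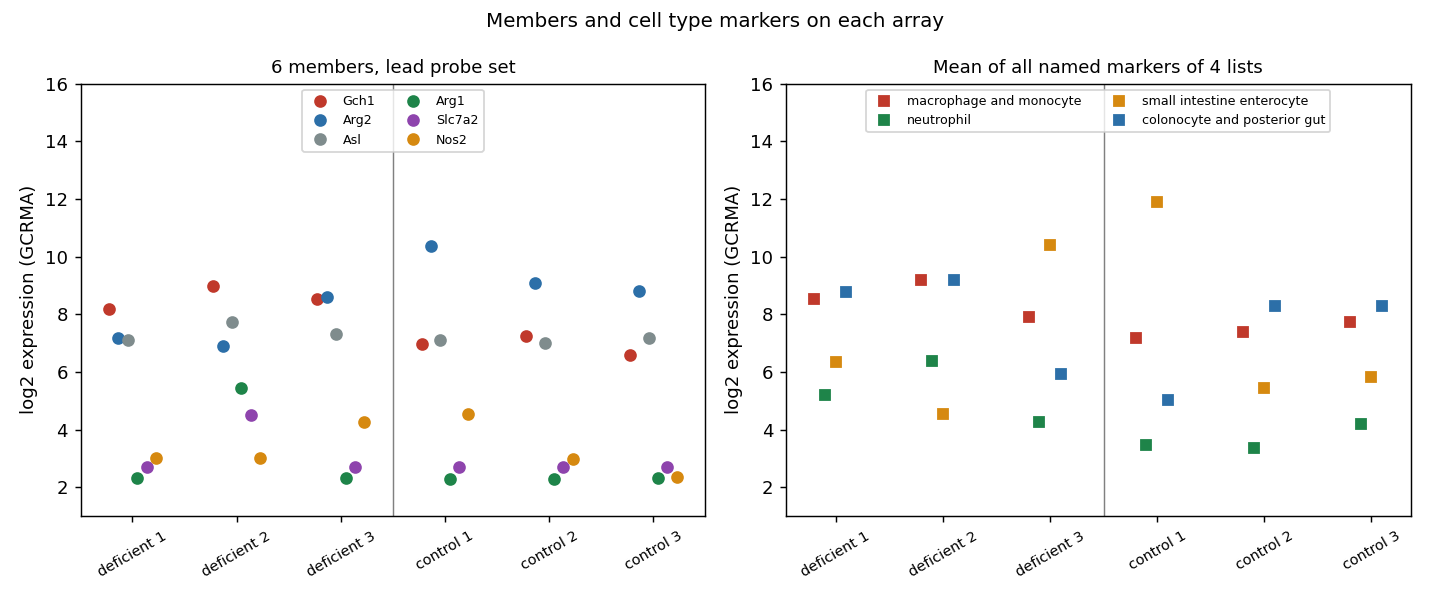
Log2 expression on each array of 6 members (left, lead probe sets) and mean log2 expression of all named markers of 4 cell type lists (right), with deficient arrays left of the grey line and control arrays right of it. Arg1 and Slc7a2 stand out on deficient replicate 2, where the neutrophil mean is 6.38, and Nos2 is highest on the 2 Apoa1-high arrays.

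Genes with the most similar pattern over the 6 arrays were listed by Pearson's r among genes with a range of at least 1. For Gch1 these were Depdc1a at 0.9826, Marchf3, a ubiquitin ligase, at 0.9794 and Ripk3, a kinase of necroptosis, at 0.9722, with 56 of 5146 genes above 0.9. For Arg1 they were Ago4, Gm13889 and Diaph3, at 0.9984 to 0.9997, all with 1 high array, and 143 of 5147 genes were above 0.9. For Nos2 they were Slc35f2, Trp53i13 and Serpinb1a, at 0.9939 to 0.9953, all highest on the Apoa1-high pair, and 199 genes were above 0.9. Such values arise easily over 6 points that share arrays, and are given as a description.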

How the data were processed

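The authors deposited 1 log2 expression value per probe set and array (45101 probe sets), made with GCRMA per the submitters' processing notes. GCRMA subtracts a background modelled on probe sequence, so unbound probe sets share a lowest value and small differences near it are compressed. Version and settings were not given in the sources used here. No further normalization was applied. The platform annotation named 1 gene for 34958 probe sets, and only these were used. A probe set was kept when above log2 4 on at least 3 of 6 arrays, and the kept probe set with the highest mean stood for its gene (10491 genes). A two-sided limma test (version 3.58.1, R 4.3.3) without covariates compared the genotypes, with Benjamini-Hochberg adjustment over all genes and a threshold of 0.05, and every kept probe set was also fitted (17031). Replicates are labelled as biological. Precision was limited. The fit was tested on simulated data of this size (10491 genes, 3 arrays a group). It recovered 0% of changes of 1 log2 unit, 56.5% of 2 units and 89.0% of 4 units. On the real arrays the standard error of Arg2 was 0.61 in this fit and 0.17 with the Apoa1-high pair as a block. That of Gch1 was 0.28 and 0.29. Recovery in a fit with that block was not tested.

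Named were the 10 members, per pathway list the 2 genes with the smallest p and any that differed by at least 1, and the 3 most similar genes for Nos2, Arg1 and Gch1. Other genes of the lists (Spr, Pcbd2, Gchfr, Smox, Oat, Nos1, Slc7a9), Xist and the genes of single marker lists were named after their values were seen. The members, lists, motifs and the 2 arrays set apart by Apoa1 above log2 10 were chosen with earlier results of these data known. Pycr1, Sms, Amd1 and Paox had no probe set that named them alone. Alternatives were other filters, quantile normalization, median centring, other summaries of probe sets, weights per array, a robust eBayes with trend, values under log2 4 set to 4, the replicate number as a block, fits without single arrays, a block for the tissue profile and a threshold of 0.1. Sequences came from RefSeq (GRCm38.p6). Marker lists were averaged over all their named genes, whether or not these passed the filter. Smooth muscle and lymphocyte markers were also read: 3 of 8 and 0 of 9 had a higher mean in deficient samples. Of 11 markers of small intestinal enterocytes 2 had a higher mean in deficient samples, and of 8 of colonocytes and posterior gut 7 had, Hoxd10 being lower. The list means of the latter were 8.77, 9.20 and 5.94 in deficient and 5.02, 8.28 and 8.27 in control samples, lowest on the Apoa1-high pair. Among them Car1 differed by 0.55 over all arrays, by -1.26 over the other 4 and by 4.19 within the pair. Groups did not overlap for 0 of the 8 smooth muscle, 0 of the 9 lymphocyte, 0 of the 11 enterocyte and 1 of the 8 colonocyte markers.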

Additional observations from a re-analysis of the deposited data

How the results depend on the processing

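No member, member probe set or listed pathway gene passed under any of the alternatives run, including an adjusted p under 0.1 with the planned fit. Array weights gave 2 calls among all genes, neither of them a member or a listed pathway gene, where the planned fit gave 0. Of 371 recomputed differences of 20 named results, 355 kept their direction and side of the threshold. Gch1 ran from 1.42 to 1.81, with unadjusted limma p under 0.05 in all 18 tested settings and adjusted p from 0.0806 to 0.985. Arg2 ran from -2.38 to -1.39, with p under 0.05 in 14 of 18 settings and adjusted p from 0.1 to 0.985. Its p was 0.0734 without deficient replicate 1, 0.0742 without deficient replicate 2 and 0.0583 without control replicate 1. Differences that turned sign were small or had overlapping groups, and the cause was not tested. Within the Apoa1-high pair these were Pts at 0.73, Odc1 at -0.14, its probe set 1427364_a_at at -0.48, Pcbd1 at 0.11, Prkg2 at 0.28 and Nags at 0.09. The probe set 1427364_a_at was also at -0.06 under quantile normalization and at -0.06 under array weights. In fits without 1 array, Pts ran from -0.33 to 0.17 (0.08 without deficient replicate 2), 1427364_a_at from -0.19 to 0.19 (-0.13 without control replicate 2) and Cps1 from -4.33 to 0.67 (0.38 without deficient replicate 2). The labels share replicate numbers between genotypes, and same-numbered arrays deviated together at -0.54, 0.36 and -0.61 (correlation across genes). The Apoa1-high arrays carry different numbers, deficient replicate 3 and control replicate 1, and deviated together at 0.69. The part of the tissue profile in these correlations was not tested, and they cannot show whether the numbers pair the mice. With the replicate block 0 genes passed, Gch1 had p 0.0026 and Arg2 p 0.0514. For Nos2, Nos3, Arg1, Slc7a2 and Ass1, signal near background limits what can be read.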
